A study of Rattus norvegicus with 8 samples.

Results

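The 10 immediate-early genes described here are Fos, Fosl1, Jun, Junb, Jund, Atf3, Egr1, Myc, Ier3 and Klf6, out of 18170 gene symbols on the array. They were chosen by symbol, and every non-control probe that carried a member's symbol was taken, which gave 11 probes, with 2 for Egr1 and 1 for each of the other members. The liver RNA came from male Fisher 344 rats, 18 weeks old, with 4 control rats and 4 rats given furan. Furan was given by gavage for 90 days, on 5 days of each week, at a daily dose of 8 mg per kg. All animals were killed by exsanguination under deep isoflurane anaesthesia, 24 hours after the last dose. The sources used here do not say what the controls were dosed with. Each array held the total RNA of a separate rat, labelled with Cy3 and read in 1 colour on an Agilent rat array. The comparison asks how this gene group stood in the liver after 90 days of furan, a volatile ring compound that the liver oxidises to a reactive dialdehyde.

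Immediate-early genes are switched on within minutes of a growth factor, injury or stress signal, without the need for new protein. Signals through the MAP kinase cascade reach serum response factor (SRF) with its ETS partners, and CREB family factors, which sit near the start sites of these genes. FOS and JUN proteins pair to form the dimer AP-1, and the pairing partner sets which genes it acts on. In liver this group is known from regeneration after surgery or toxic injury. Its RNAs are short-lived.

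The stretches upstream of the start sites are shown because they carry the sites through which the SRF and CREB signals act. RefSeq promoters on build GRCr8 were at hand for 5 of the 10 members (Fosl1, Junb, Jund, Egr1 and Klf6), and the 250 bases before each start were searched on both strands. The motifs were the CArG box bound by SRF (CC, then 6 bases of A or T, then GG), the full cyclic AMP response element TGACGTCA, its shorter core site TGACG, and the AP-1 site TGANTCA. Of 33469 promoters in the table, 1.5% held a CArG box, 1.59% the full element, 18.2% the core site (every full element holds it) and 6.34% an AP-1 site in the same window. Egr1 held 2 CArG boxes, which began 105 and 83 bases before the start, and 2 core sites. Jund held a full element 221 bases before the start, whereas Junb held 1 core site and Fosl1 held 2, and none of these 3 held a CArG box. No AP-1 site was found in these 5 windows. In the 250-base stretches printed here, capitals mark CArG boxes and core sites, including the core sites within a full element.
Egr1, GRCr8 chr18:26736828-26737077, plus strand: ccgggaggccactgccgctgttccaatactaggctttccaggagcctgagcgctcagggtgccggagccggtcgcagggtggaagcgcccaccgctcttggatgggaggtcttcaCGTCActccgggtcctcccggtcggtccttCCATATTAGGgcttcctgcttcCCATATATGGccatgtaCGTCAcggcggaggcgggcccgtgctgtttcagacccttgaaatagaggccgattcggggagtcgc
Junb, GRCr8 chr19:40080876-40081125, plus strand: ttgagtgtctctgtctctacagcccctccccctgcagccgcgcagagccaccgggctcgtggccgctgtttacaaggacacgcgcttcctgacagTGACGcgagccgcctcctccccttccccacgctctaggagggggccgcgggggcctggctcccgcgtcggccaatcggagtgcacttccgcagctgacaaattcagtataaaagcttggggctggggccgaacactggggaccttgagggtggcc
Fosl1, GRCr8 chr1:212183635-212183884, plus strand: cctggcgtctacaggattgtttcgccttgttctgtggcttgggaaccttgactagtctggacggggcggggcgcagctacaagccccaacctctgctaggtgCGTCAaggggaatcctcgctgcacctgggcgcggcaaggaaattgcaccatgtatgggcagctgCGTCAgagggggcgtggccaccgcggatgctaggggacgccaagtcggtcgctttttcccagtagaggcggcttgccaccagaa
Jund, GRCr8 chr16:18769772-18770021, minus strand: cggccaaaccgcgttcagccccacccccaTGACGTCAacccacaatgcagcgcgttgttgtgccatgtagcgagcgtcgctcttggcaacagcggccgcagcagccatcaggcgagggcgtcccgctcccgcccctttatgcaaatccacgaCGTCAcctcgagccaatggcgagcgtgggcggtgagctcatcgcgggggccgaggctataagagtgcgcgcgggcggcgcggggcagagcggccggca

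For comparison, the CArG boxes of Klf6 and of 2 related genes, the SRF gene itself and Egr2, a relative of Egr1, are shown with 15 bases on each side. In these shorter stretches capitals mark CArG boxes only. The Egr2 stretch also holds a core site, 66 bases before the start, left in lower case. The box of Egr2 began 83 bases before its start, as did the box nearer the start in Egr1, and those 2 boxes have the same letters. A match describes the letters in the window only.
Egr2, GRCr8 chr20:21054500-21054539, minus strand: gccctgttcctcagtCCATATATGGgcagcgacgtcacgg
Srf, GRCr8 chr9:21923980-21924039, plus strand: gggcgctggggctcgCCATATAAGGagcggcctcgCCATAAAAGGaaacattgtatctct
Klf6, GRCr8 chr17:69458655-69458694, minus strand: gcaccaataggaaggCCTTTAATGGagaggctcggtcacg

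The probes that the main results rest on are 60 bases long, and part of each is shown so that the measured transcript can be identified. The dimmer Egr1 probe is shown whole, because it read as 19 codons followed by an in-frame stop codon, and the others are stretches of 30 bases. Capitals mark the pentamer ATTTA, a letter pattern of many short-lived messages, which was present in the probes of 2 of the 11 (Fosl1 and Ier3) and in 6.58% of the 30367 probes on the array.
Fosl1 probe, bases 6 to 35: agggcagctgctATTTAttttcctaaagag
Ier3 probe, bases 1 to 30: ATTTAttctaacttatgcaggggtgcgaga
Junb probe, bases 1 to 30: cacgcacttcgtgtctaaagtctattttaa
Atf3 probe, bases 1 to 30: tctgtgaaatcctcagtgttcaatccagac
Egr1 brighter probe, bases 1 to 30: tttgtatgctatgaacatgaagttcattat
Egr1 dimmer probe, bases 1 to 60: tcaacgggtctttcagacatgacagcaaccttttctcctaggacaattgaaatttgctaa

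Levels are log2 processed signals relative to the 75th percentile of the array's non-control spots, so that 0 is the percentile itself and a value of -3 lies 3 log2 units below it. They compare arrays for 1 probe and do not rank genes by abundance. A change was called at an adjusted p below 0.05 in limma's moderated test, adjusted with the Benjamini-Hochberg method over all 20268 probes tested. Of these, 33.8% were called, 16.9% higher and 16.9% lower with furan, and the median log2 change was -0.033. All 4 furan values lay on one side of all 4 control values for 36.4% of the probes, above for 18.4% and below for 18%. With normexp background correction the median moved to -0.19, and 30.2% of the called probes were higher, against 50% with the main processing. Arrays 1 and 2 of each group shared a slide and a scan, as did arrays 3 and 4. The 75th percentile lay at an intensity of 827.4 to 1057 in controls and 1256 to 1596 with furan, and no spot was saturated. All 8 hepatocyte markers were well above the 75th percentile on every array, at 2.13 or more, which bears out the tissue label. Of these markers 5 fell, 1 rose (Apoa1, by 0.72) and 2, among them Alb at 7.31 to 8.20, were not called, with a median change of -0.54. Their log2 summed level was 10.56 to 10.80 in controls and 10.08 to 10.39 with furan, and its part in the lower values of members and lists was not tested.

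Of the 11 member probes, 8 were well above background on all 8 arrays, and of these Atf3 rose and Junb fell. The brighter Egr1 probe and Myc were higher and Ier3 and Jund lower by amounts that did not pass the test. The probe of Fosl1 and the dimmer Egr1 probe entered the test only through the furan group, where they were high, and had readings near background on most controls. Fosl1 was called among these, so that 3 of the 10 probes tested were called, a count that is not above the share over all probes and says nothing about the group. The groups did not overlap for Junb, which lay below, and for the Fosl1 readings, which lay above. In whole liver, a change in the RNA per cell and a change in the number of cells of a type cannot be told apart.

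**Figure D1:**
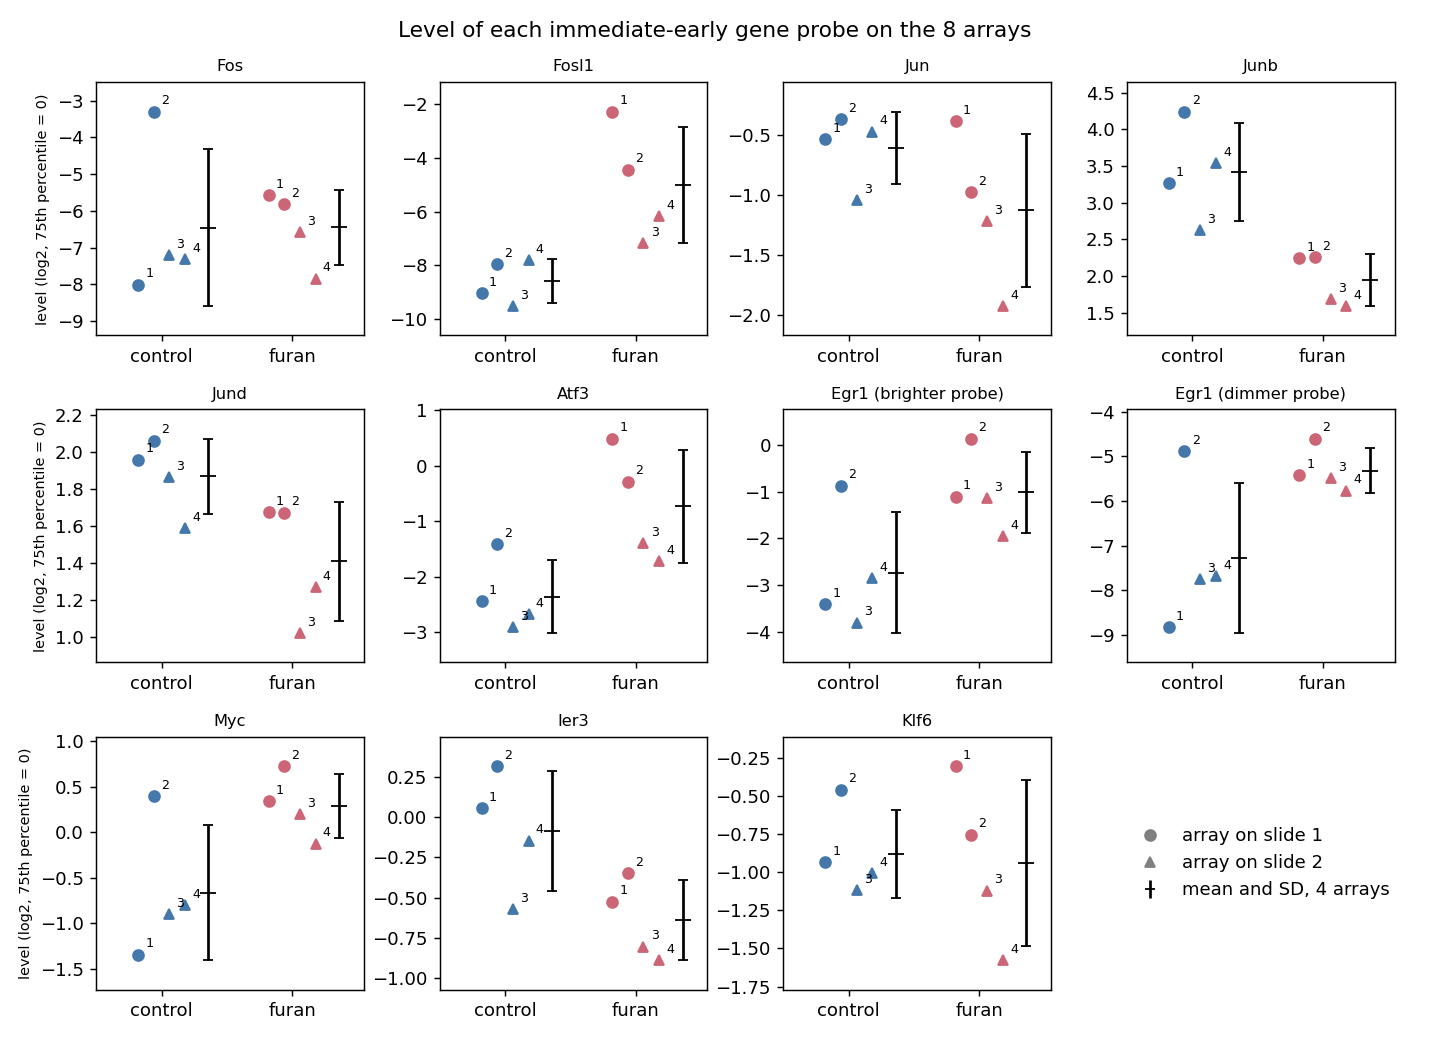
Level of each of the 11 member probes on every array, in log2 relative to the array's 75th percentile, with its own vertical scale in each panel. Numbers name the rat within its group, circles and triangles mark slides 1 and 2, and the bars give mean and SD of 4 arrays. The Junb values with furan (1.59 to 2.26) lie below all controls (2.63 to 4.24), and control 2 is the highest control in most panels.

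Among the FOS proteins, which need a JUN partner to bind DNA, Fosl1 (FRA-1, a slowly induced and longer-lived member) gave higher readings with furan. Its probe lies at chr1:208099035-208099094 of build rn4, on the plus strand. Control levels were -9.03, -7.96, -9.52 and -7.81 and furan levels -2.28, -4.44, -7.19 and -6.16. All 4 furan arrays lay above every control, and those of slide 1 above those of slide 2. The probe was well above background on all 4 furan arrays but on only 1 control array, control 4, so that most control levels are readings near the background. Mean levels were -8.58 ± 0.83 (SD, n = 4) in controls and -5.02 ± 2.15 with furan, and the fit called the probe (adjusted p = 0.0241). The probe passed the filter through the furan group alone and its control readings lie near background, so the fitted log2 change of 3.57 is no measure of the size. Normexp correction, which damps readings near background, gave 0.53 with an adjusted p of 0.329. With no filter on dim probes the change was the same and the adjusted p 0.0502. There the moderated fit and the adjustment were both redone over more probes. Dropping control 1, control 3 or furan 2 also ended the call (adjusted p of 0.0566, 0.0634 and 0.0686).

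Fos itself, the founding member, was near background. Its probe (chr6:109561941-109562000, rn4, plus strand) read -8.01, -3.30, -7.21 and -7.30 in controls and -5.58, -5.81, -6.57 and -7.84 with furan. Control 2 stood far above the other 7 arrays, with an intensity of 99.2 where the other controls read 3.2 to 7.1 and the furan arrays 5.5 to 31.2. The probe was well above background on 2 of 4 control arrays (controls 2 and 3) and 3 of 4 furan arrays, so it did not enter the test. The group means, -6.45 ± 2.14 (SD, n = 4) and -6.45 ± 1.02, differed by 0.0052. Without control 2, furan was 1.06 above the remaining controls, with the groups still overlapping.

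The other FOS genes did not rise. Fosb levels were -3.15, -2.65, -3.10 and -3.20 in controls and -3.21, -4.49, -3.78 and -3.81 with furan. Furan arrays all lay below the controls, with furan 1 only just below them. The log2 change of Fosb was -0.80 (adjusted p = 0.0449). It was called in 10 of 22 alternatives and lost the call when control 1, 2, 3 or 4 or furan 2, 3 or 4 was left out (adjusted p up to 0.104, with a change of -0.57 at the least). Fosl2 (FRA-2) changed by -0.62 with an adjusted p of 0.167 on its brighter probe and by -0.19 on the other.

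Of the 3 JUN genes, which can pair with each other as well as with FOS proteins, Junb fell and the other 2 did not pass the test. Junb, which dampens JUN activity in many settings, was measured by a single spot at chr19:24833225-24833284 (rn4, plus strand). Its levels were 3.26, 4.24, 2.63 and 3.54 in controls and 2.24, 2.26, 1.68 and 1.59 with furan. Even the lowest control, control 3, lay above the highest furan array. The mean went from 3.42 ± 0.67 (SD, n = 4) to 1.95 ± 0.36, a log2 change of -1.47 ± 0.33 (SE), with a 95% interval of -2.23 to -0.72 and an adjusted p of 0.0109, or 2.78-fold lower. The difference was alike on both slides, -1.50 on slide 1 and -1.45 on slide 2, though with 2 arrays a group neither slide alone passed the test (adjusted p 0.121 and 0.0686). The call held whichever array was left out.

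Jun, the JUN partner most used by FOS, read -0.54, -0.37, -1.04 and -0.47 in controls and -0.38, -0.98, -1.22 and -1.93 with furan at chr5:115359410-115359469 (rn4, minus strand). The groups overlapped through furan 1 and 2 and control 3. The log2 change was -0.52 ± 0.31 (SE; 95% interval -1.23 to 0.19; adjusted p = 0.224), and Jun was not called in any of the 22 alternatives. Jund, the JUN gene with steady expression in resting cells, read 1.96, 2.06, 1.86 and 1.59 in controls and 1.67, 1.67, 1.02 and 1.27 with furan at chr16:19239707-19239766 (rn4, minus strand). Only control 4 lay within the furan range. The change was -0.46 ± 0.18 (SE; adjusted p = 0.0815), and a fit that blocks on the slide called it (adjusted p = 0.0251).

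Atf3, a stress-induced factor of the ATF and CREB family that pairs with JUN proteins and often represses its targets, rose. Its probe at chr13:107191582-107191614 (rn4, minus strand) read -2.44, -1.41, -2.91 and -2.68 in controls and 0.48, -0.29, -1.39 and -1.72 with furan. The annotated interval is shorter than the 60 bases of the probe. Of the furan arrays, 3 lay above every control and furan 4 lay below control 2 alone. The mean moved from -2.36 ± 0.66 (SD, n = 4) to -0.73 ± 1.02, a log2 change of 1.63 ± 0.52 (SE), with a 95% interval of 0.44 to 2.81 and an adjusted p of 0.0412, or 3.09-fold. The difference was 2.02 within slide 1 and 1.24 within slide 2. Dropping control 1, 3 or 4 ended the call (adjusted p of 0.0825, 0.100 and 0.0936), as did dropping furan 1 or 2 (0.0718 and 0.108), with changes down to 1.22, and held without control 2, furan 3 or furan 4. The call was also lost with no filter on dim probes (adjusted p = 0.0802), where the change itself was the same. There the moderated fit and the adjustment were both redone over more probes.

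Egr1, a zinc finger factor and a classic target of SRF, was higher with furan on its brighter probe, without passing the test, and a dimmer probe had higher readings. The brighter probe, at chr18:27347173-27347232 (rn4, plus strand) and averaged over 10 spots, read -3.40, -0.87, -3.81 and -2.86 in controls and -1.11, 0.13, -1.14 and -1.96 with furan. Control 2 sat among the furan arrays and the other 3 controls below them all. The log2 change was 1.72 ± 0.66 (SE; 95% interval 0.20 to 3.24; adjusted p = 0.0776), and 1.65 and 1.78 within slides 1 and 2. Leaving out control 2 gave 2.34 with an adjusted p of 0.0114.

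The dimmer Egr1 probe, whose 60 bases are printed above, lies at chr18:27346058-27346117 (rn4, plus strand). It read -8.82, -4.89, -7.75 and -7.67 in controls and -5.42, -4.61, -5.49 and -5.77 with furan. The arrays fell in the same way as on the brighter probe, with control 2 among the furan arrays. It was well above background on control 2 alone among the controls and on all 4 furan arrays. It thus entered the test through the furan group, and its fitted change of 1.96 (adjusted p = 0.0735) is no measure of the size. With normexp correction it was -0.006 (adjusted p = 0.977). Without control 2 no control was above background, so no value is given for that case.

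Myc, which drives ribosome building and cell growth together with its partner MAX, had the same arrangement. Averaged over 10 spots at chr7:98957687-98957746 (rn4, plus strand), it read -1.34, 0.40, -0.90 and -0.80 in controls and 0.34, 0.73, 0.20 and -0.12 with furan. Controls 1, 3 and 4 lay below every furan array and control 2 above 3 of the 4. The log2 change was 0.95 ± 0.36 (SE; 95% interval 0.13 to 1.77; adjusted p = 0.0714), 1.93-fold on the linear scale. It was 1.30 without control 2 (adjusted p = 0.00761) and 0.92 with normexp correction (adjusted p = 0.0295).

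Ier3, which acts on cell survival and ERK signalling and is no DNA-binding factor, moved the other way. Its probe (chr20:3076832-3076891, rn4, minus strand, 10 spots) read 0.05, 0.32, -0.57 and -0.15 in controls and -0.53, -0.35, -0.81 and -0.89 with furan. Control 3 alone lay within the furan range. The change was -0.56 ± 0.21 (SE; adjusted p = 0.0696), and it was called without control 3 (-0.72, adjusted p = 0.0285), with slide blocks (0.0182), with normexp correction (0.0322) and with scaling to the array median (0.0475). Klf6, a zinc finger factor induced in injured liver, read -0.94, -0.46, -1.12 and -1.01 in controls and -0.30, -0.75, -1.12 and -1.58 with furan at chr17:75579782-75579841 (rn4, minus strand). Every control lay within the furan range, with furan 1 above all controls, furan 4 below them and furan 3 only just below. The change was -0.06 ± 0.27 (SE; 95% interval -0.68 to 0.56; adjusted p = 0.888).

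**Figure D2:**
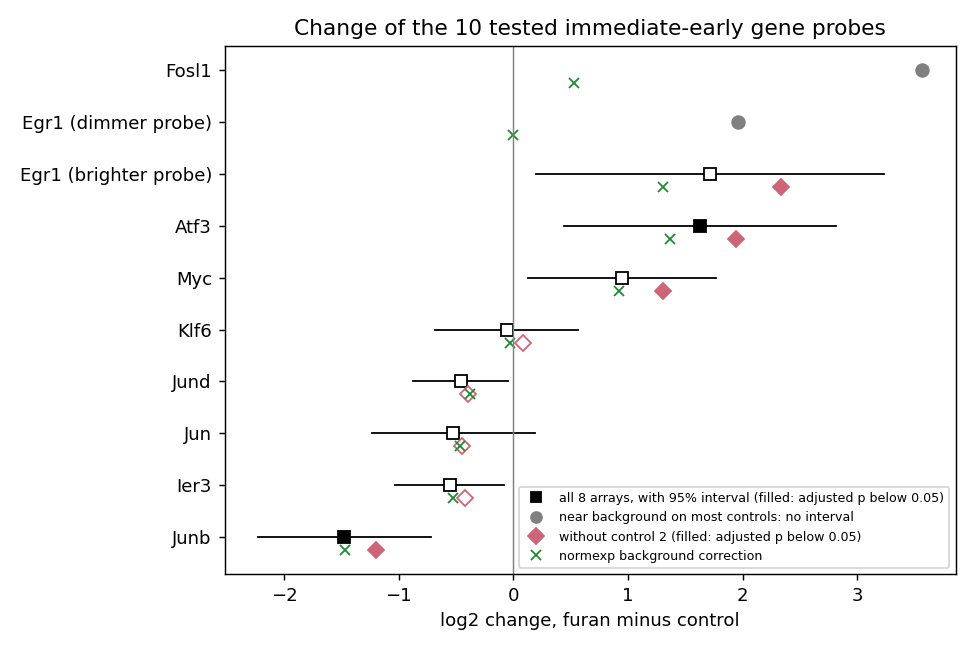
Log2 change, furan minus control, of the 10 member probes tested, with 95% intervals from limma over 8 arrays for the 8 probes above background on every array (filled squares passed an adjusted p of 0.05). Grey circles are the fitted values of Fosl1 and the dimmer Egr1 probe, near background on most controls and drawn with no interval. Diamonds leave out control 2, which takes the brighter Egr1 probe and Myc past the threshold, and crosses use normexp correction.

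Within each group, the members shared an order of arrays. Control 2 was the highest control for 9 of the 10 tested member probes, against 28% of all tested probes. Both furan arrays of slide 1 lay above both of slide 2 for 10 of the 10, against 20.2% of all, and the control arrays did so for 4 of the 10, against 20.8%. Relative to the mean of controls 1, 3 and 4, control 2 was higher by 4.2 for Fos, 2.5 and 3.2 for the Egr1 probes, 1.4 for Myc and 1.3 for Atf3, against 0.3 for Jun and Jund. These shares were noticed in the data and carry no test.

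**Figure D3:**
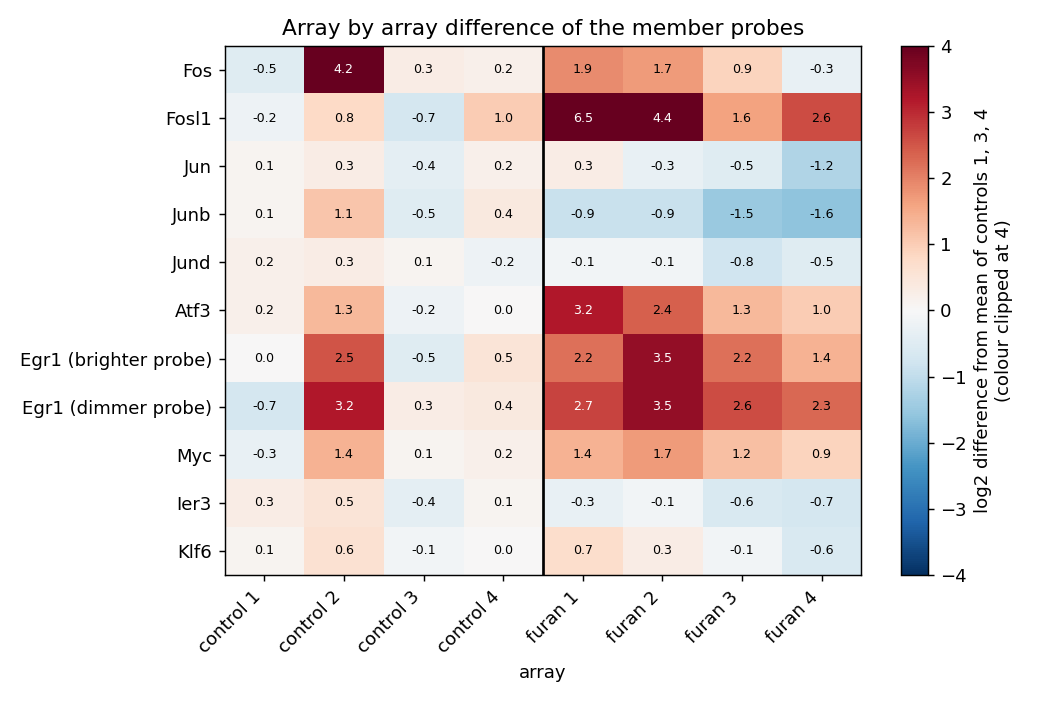
Difference of each member probe on each array from the mean of controls 1, 3 and 4, in log2 units, with red above and blue below and the colour clipped at 4. The control 2 column is above 0 for all 11 probes, up to 4.2 for Fos, and the furan columns split into Fosl1, Atf3, Egr1 and Myc above 0 on all 4 arrays and Junb, Jund and Ier3 below 0.

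Markers of other cells moved with control 2 and furan 1. Krt19, a bile duct keratin, stood at 0.32 in control 2 and at -4.33 to -3.28 in the other controls, and at 0.71, -1.72, -3.62 and -3.52 in furan 1 to 4. The 8 biliary markers, of which 3 rose with furan and none fell, had a log2 summed level of 2.43 in control 2 against -0.44 to 0.20 in the other controls, and of 0.54 to 3.14 with furan. Smooth muscle markers followed in the same 2 arrays. Their log2 sum was 0.33 in control 2 against -4.08 to -2.87 in the other controls, and -0.95 in furan 1 against -4.32 to -3.81 in the other furan arrays. None of the 2 tested smooth muscle markers was called, and their part and that of the biliary markers in the member values was not tested. For Egr1 and Myc, the changes without both of these arrays were 2.37 (brighter probe, adjusted p = 0.0228) and 1.28 (adjusted p = 0.017).

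The immune markers did not rise. None of the 8 macrophage markers was called, their log2 sums being 5.04 to 5.44 in controls and 4.87 to 5.32 with furan. Of 6 neutrophil markers, 3 were tested and 2 were lower, S100a9 by 1.65 on the log2 scale (adjusted p = 0.0406) and Csf3r, the receptor for granulocyte growth factor; Mpo, Ngp and Elane did not pass the filter. Neutrophil log2 sums were -2.23 to 0.10 in controls and -3.55 to -2.02 with furan. Of the 5 cell division markers 4 rose, Mki67 from -5.10 to -4.51 in controls to -2.78 to -1.64 with furan.

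**Figure D4:**
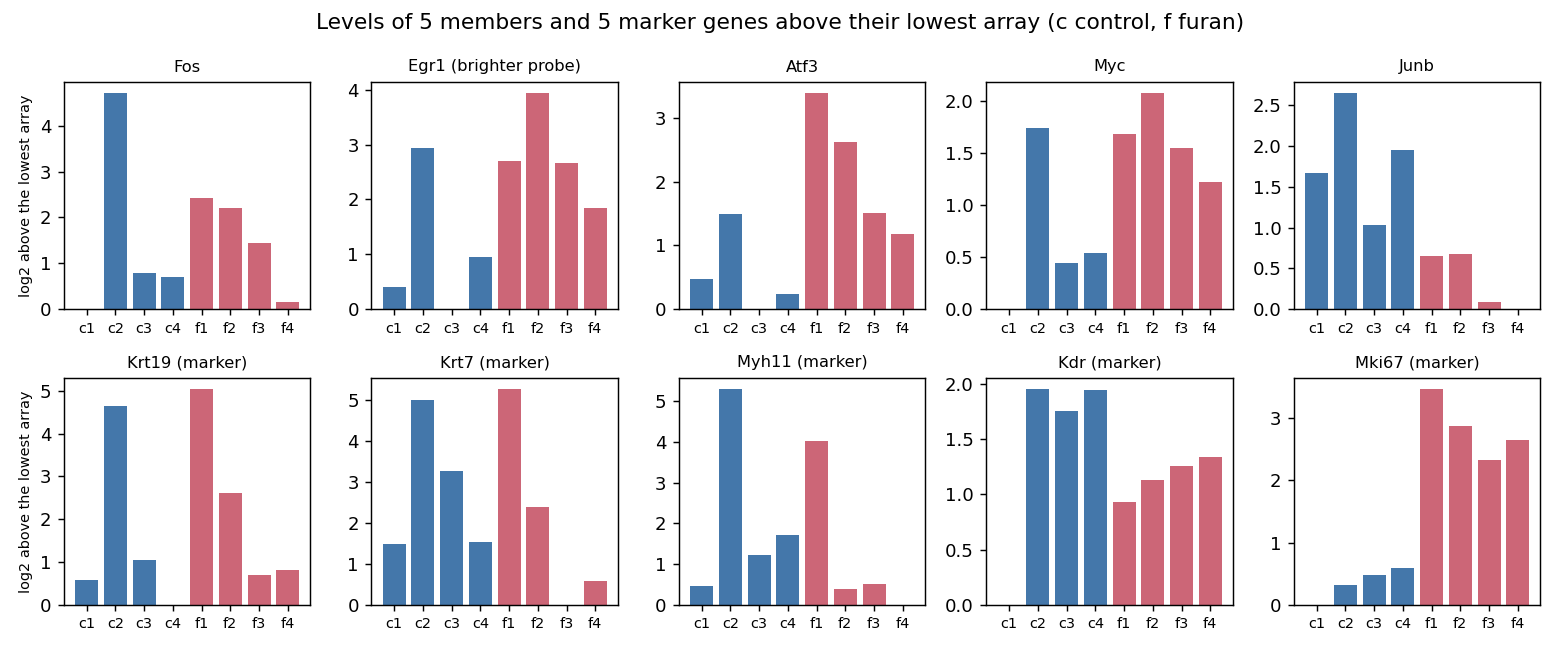
Levels of 5 members (top) and 5 marker genes (bottom) on the 8 arrays, in log2 units above the lowest array of each gene, so that bars start at 0. Control 2 and furan 1 stand out for Krt19, Krt7 and Myh11, control 2 for Fos, and all 4 furan arrays for the division marker Mki67.

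Differences taken within an array set 5 members against Junb and so do not depend on the scaling of the arrays. Egr1 (brighter probe) minus Junb was -6.67, -5.11, -6.43 and -6.40 in controls and -3.35, -2.13, -2.83 and -3.55 with furan. All furan arrays lay above all controls, control 2 included. The mean difference between the groups was 3.19 for Egr1, 3.10 for Atf3, 2.42 for Myc, 1.01 for Jund and 0.95 for Jun, and the groups stood apart in each of these. These contrasts were chosen after the values were seen and have no test; they show unequal change between probes, not which of them moved.

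The genes whose pattern lay nearest to that of Fos, out of 6228 with a range of at least 1, were Sftpd, Ch25h, Gja5, Cx3cl1 and Muc1. The root mean square difference from Fos over the 8 arrays, after each probe's own mean was taken off, was 0.468 to 0.567, where Fos itself varied by 1.45 about its mean. Sftpd read -6.41, -2.02, -6.67 and -5.70 in controls and -4.40, -4.96, -6.14 and -6.10 with furan, which is again highest in control 2. None of the 5 was called (adjusted p from 0.561 to 0.997). Nearest to Myc were Tpd52l1, Tmem241, Enc1, Ptk2b and Rcn2, at 0.233 to 0.299 where Myc varied by 0.693. Their log2 changes were 0.76 to 1.01, with adjusted p from 0.00594 to 0.0499. The Myc set was picked for likeness to a pattern that holds the group difference, so its changes add no support to it. The Fos set was picked for likeness to a pattern whose group means differed by 0.0052, so its lack of calls adds nothing either.

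Of 13 tested genes in the list of AP-1 partners none rose and 3 fell, with a list median of -0.35. The lower share is near the 16.9% over all probes, and the share called in either direction is below the 33.8%. At an unadjusted p below 0.05 in limma the counts were 1 higher and 5 lower. Besides Fosb, these were Mafg, a small MAF protein (-0.61, adjusted p = 0.00743), and Batf2 (-0.53, adjusted p = 0.0278). Mafg read -0.24 to -0.02 in controls and -1.01 to -0.58 with furan. Batf2 lost its call without control 1, 2 or 4 or furan 2 or 4 (adjusted p up to 0.0691). The count of lower genes ranged from 1 (without control 2, control 4, furan 2 or furan 4, or with no filter on dim probes) to 4 (without furan 1), was 2 without control 1, control 3 or furan 3, and was 7 with normexp correction. A single gene was called higher without furan 3, and with the slide as a blocking term 2 were higher and 2 lower.

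Of 35 tested among 39 other immediate-early genes, 8 fell and none rose, with a median of -0.45, where 16.9% of all probes were lower and 33.8% were called in either direction. At an unadjusted p below 0.05, limma counted 2 higher and 12 lower. Nfkbiz, a nuclear modulator of NF-kappaB, read -2.34, -1.89, -2.55 and -2.11 in controls and -3.87, -3.60, -3.73 and -3.86 with furan. That was a gap with no overlap and a log2 change of -1.54 (adjusted p = 0.00062). Btg1, which restrains proliferation, changed by -1.14 (adjusted p = 0.00408) and Nfil3, a basic leucine zipper repressor, by -1.09 (adjusted p = 0.00844), and both kept the call whichever array was left out. Egr2, named after its values were seen, read -8.08, -4.89, -7.68 and -7.71 in controls and -4.35, -3.63, -5.48 and -6.53 with furan. Control 2 was the highest control, as for Egr1. The control 1 level lay below -7.99, the lowest level well above background on that array, so Egr2 entered the test through the furan group. Its fitted change of 2.09 (adjusted p = 0.083) is therefore no measure of the size. Without control 2, 3 genes of the list rose and 6 fell; the lower count was 5 without furan 2, and 13 with normexp correction, where 1 rose.

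**Figure D5:**
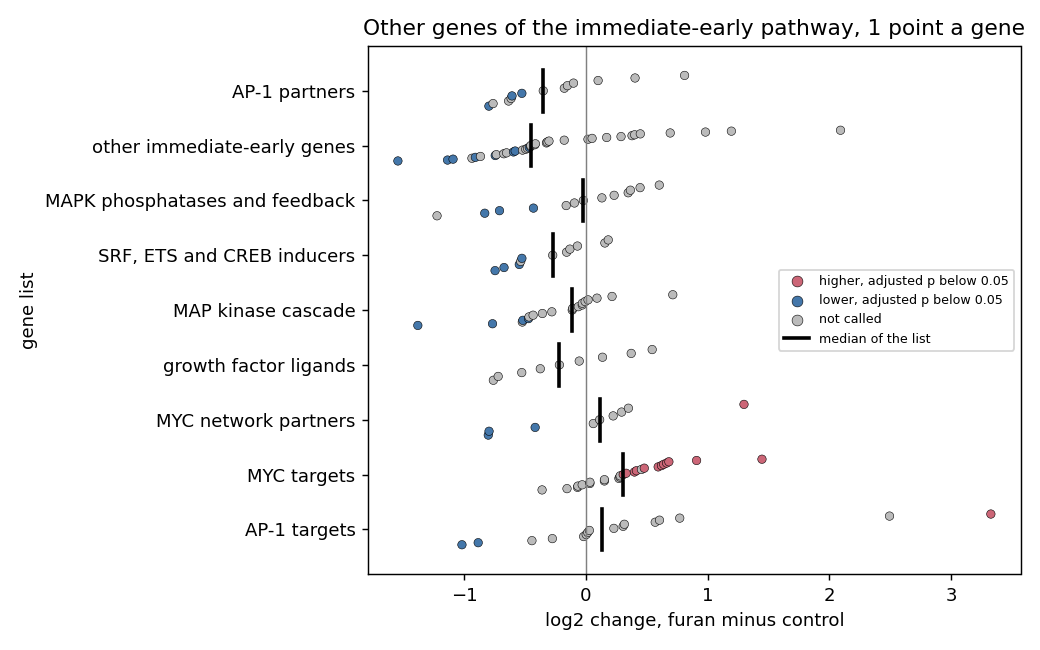
Log2 change, furan minus control, of the tested genes of 9 related lists, 1 point a gene by its brightest probe, coloured by limma's call, with the list median as a bar. Of the MYC targets, 12 of 25 were called higher, and the calls of the SRF, ETS and CREB list (4 of 11) and the MAP kinase cascade (4 of 19) were lower. Over all tested probes, 16.9% were called higher, 16.9% lower and 33.8% in either direction. The lists were chosen with earlier results of these data known.

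Of 11 tested SRF, ETS and CREB genes 4 fell and none rose, with a median of -0.27. At an unadjusted p below 0.05, limma counted none higher and 6 lower. Over all probes, 16.9% were called lower and 33.8% in either direction. The share of this list called in either direction is near the latter. Srf read 0.44, 0.63, 0.45 and 0.31 in controls and 0.19, -0.04, -0.26 and -0.15 with furan. The groups did not overlap, and the change was -0.53 (adjusted p = 0.0151). Stat3, which carries interleukin signals, changed by -0.75 (adjusted p = 0.0095), Crem by -0.67 (adjusted p = 0.00633) and the CREB coactivator Crtc2 by -0.55 (adjusted p = 0.00999). All 5 Crem probes were lower, by 0.42 to 0.97 in size, and 4 of them were called. All 4 genes kept their call whichever array was left out.

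In the MAP kinase cascade 4 of 19 genes fell and none rose (1 higher and 6 lower at an unadjusted p below 0.05 in limma), with a list median of -0.11. The lower count is near the 16.9% over all probes, so it is no result about the cascade as a whole. Egfr, the receptor for EGF and related ligands, read 1.65, 1.49, 1.64 and 1.75 in controls and 0.31, -0.11, 0.47 and 0.32 with furan. The groups stood wide apart, with a change of -1.38 (adjusted p = 0.000653). Mapk8 (JNK1) changed by -0.77 (adjusted p = 0.00119) on its brighter probe and by 0.33 (adjusted p = 0.069) on a dimmer one. Mapk3 (ERK1) changed by -0.52 (adjusted p = 0.0187), but by 0.08 with quantile normalization, and missed the call without furan 2 (adjusted p = 0.0502). The fourth gene, Met, lost its call without control 3, control 4 or furan 2 (adjusted p up to 0.0609), and without furan 2 the list had 2 lower genes. None of 9 tested growth factor ligands was called (1 higher and 3 lower at an unadjusted p below 0.05 in limma). The smallest p was that of Il1b, at -0.72 (adjusted p = 0.0623). Without furan 1, 2 ligands were called lower, 1 without control 2 or furan 3, and 1 was called higher without furan 4. With normexp correction, 1 was higher and 5 lower.

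The feedback inhibitors of MAP kinase signalling, which are themselves induced by it, numbered 13 tested of 16, with 3 lower and none higher (2 higher and 4 lower at an unadjusted p below 0.05 in limma), again near the 16.9% lower over all probes. Dusp6, an ERK phosphatase, read 2.35, 2.36, 1.80 and 2.34 in controls and 1.13, 1.30, 1.65 and 1.44 with furan, all below the controls. It changed by -0.83 (adjusted p = 0.00767), and Errfi1, an inhibitor of EGFR, by -0.71 (adjusted p = 0.00498, though 0.124 at most over the alternatives, with the call lost under quantile normalization). Spred1 changed by -0.43 (adjusted p = 0.0481) and lost its call without any of the controls or furan 1, 2 or 4 (adjusted p up to 0.12). The list median of -0.02 ranged from -0.23 with normexp correction to 0.18 within slide 2, so it had no settled direction. Lower counts ran from 2 (without control 2, 3 or 4 or furan 1 or 4) to 4 (without control 1), and 6 were lower and 1 higher with normexp correction. A gene of the list was called higher without control 1 or furan 4.

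Around MYC, single partners were called in both directions. Max, the obligate partner of MYC, read -2.49, -2.25, -2.40 and -2.29 in controls and -2.71, -3.52, -3.10 and -3.27 with furan. It fell by 0.80 on the log2 scale (adjusted p = 0.00917), with no overlap. Of 9 tested network genes 3 were called lower and 1 higher, where 16.9% of all probes were called in each direction and 33.8% in either. The list median of 0.11 turned to -0.05 with normexp correction. Mlxipl (ChREBP, a glucose-responsive factor of fat synthesis) changed by -0.80 (adjusted p = 0.00561) and its partner Mlx by -0.42 (adjusted p = 0.0331). Mlx lost its call without any of the controls, furan 2 or furan 4 (adjusted p up to 0.0822), so the lower count was 2 in each of those cases and 1 more gene was higher without furan 1. Mxd3, a MAX-binding protein of dividing cells, was called higher (adjusted p = 0.000578), at -7.22 to -6.81 in controls and -5.83 to -5.56 with furan. It was not well above background on all 8 arrays, so it entered the test through 1 group alone. Its fitted change of 1.30 is therefore no measure of the size, and it was -0.16 with normexp correction.

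Among MYC targets, genes of ribosome building and polyamine synthesis were among those that rose, and others of the same kind did not pass the test. Of 25 genes, 12 were higher and none lower (14 and 1 at an unadjusted p below 0.05 in limma), against 16.9% higher over all probes, with a median of 0.31. Odc1, the first enzyme of polyamine synthesis, read 0.29, 0.24, 0.31 and 0.17 in controls and 1.92, 1.67, 1.59 and 1.62 with furan. The spread within each group was small beside the change of 1.45 (adjusted p = 0.000219), and control 2 did not stand apart here. Rrp12, a ribosome assembly factor, changed by 0.91 (adjusted p = 0.0082) and Srm, spermidine synthase, by 0.68 (adjusted p = 0.00632, and 0.64 on its other probe). Npm1 (0.03), Nolc1 (0.03), Polr1b (-0.07), Wdr43 (-0.07) and Gnl3 (-0.03), ribosome building genes named after their values were seen, were not called. The higher count was 8 without control 2, control 3, furan 1 or furan 2 or with no filter on dim probes, 9 without control 1 or control 4, and 11 without furan 3 or furan 4. It fell to 4 with scaling to the array median, which lowers every change, with a median then of 0.24. The higher count was 5 without control 2 and furan 1 together. It was 0 within slide 1 alone and 1 within slide 2 alone, fits with 2 arrays a group. The list was chosen with earlier results of these data known, so its count against the share over all probes is no test. A single gene of the list was called lower without furan 4 or with normexp correction. Cell division markers rose in the same arrays, and their part in this was not tested.

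Genes often described as AP-1 targets showed no common direction. Of 16 tested among 22, 1 rose and 2 fell, a share called that is below the 33.8% over all probes (16.9% in each direction). The count is thus no result about these targets as a group. The list median of 0.13 turned to -0.08 with normexp correction. Mmp12, a macrophage elastase, read -6.47, -3.38, -5.53 and -4.44 in controls and -0.48, -0.84, -2.27 and -2.92 with furan. Control 2 was again the highest control but lay below all furan arrays, and the change was 3.33 (adjusted p = 0.0111). Vegfa, the endothelial growth factor, changed by -1.02 (adjusted p = 0.00238), with 3 of its 4 probes called lower, and Il1rn, the interleukin 1 receptor antagonist, by -0.89 (adjusted p = 0.00991). The lower count was 3 without control 4 or furan 1, and the higher count was 2 without control 1. With normexp correction, 2 rose and 4 fell.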

How the data were processed

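Per the file headers and the submitters' processing notes, the authors read the spot signals with Agilent Feature Extraction 10.7; probe positions are on build rn4. The deposited processed signal is a background-subtracted intensity, and the deposited series table holds the authors' intensity values, equal to it after scaling to the 75th percentile. Here the log2 intensity was set relative to the 75th percentile of the array's non-control spots. Of 30367 probes, 30197 had a spot free of outlier flags on every array. Spots of a probe were averaged, and the 20268 probes well above background (at least a share of 0.5 of its spots) on all arrays of a group were tested with limma 3.58.1 in R 4.3.3 and adjusted with the Benjamini-Hochberg method. The number of arrays limits the precision.

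Groups came from the sample labels. Of each list, the up to 3 called genes with the largest change in the direction with more calls, the largest of the other direction, or else the smallest p, were named, with Srf, Max, Fosl2 and Fosb always, by the brightest probe. The members and all lists were chosen with earlier results of these data known, so their counts against the share over all probes are no test. Alternatives covered background correction, scaling, filters, slide, replicate block and leaving out arrays. Promoters are from RefSeq (GRCr8).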

Additional observations from a re-analysis of the deposited data

Results flagged for a closer look

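The Fos level of control 2, at -3.30, was far from the other controls: its gap to the nearest of them made up 0.831 of the range of the 4 control arrays, just above Dixon's critical value for 4 samples. Of 22 groups of member values looked at, this 1 was past its critical value, and chance alone passes about 1 in 20.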

How the results depend on the processing

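No result changed its called direction under the 22 alternatives. Over all probes, 3429 were higher and 3423 lower; 2038 were higher with scaling to the array median and 7102 lower with normexp correction. Within slide 1 alone 136 were higher and 39 lower, and within slide 2 alone 752 and 517. Leaving out single arrays gave 2479 to 3361 higher and 2213 to 3386 lower. Of the member probes 2 were higher and 1 lower. The higher count was 1 with the filter on all 8 arrays, 0 with no filter on dim probes (5 at an unadjusted p below 0.05 in limma) and 0 within slide 1 alone (2 unadjusted). It was 5 without control 2 and furan 1 together. That count holds Fosl1 and the dimmer Egr1 probe, which entered the test through the furan group, the latter with no control then above background. Leaving out 1 array gave 0 to 5: 0 without control 1, control 3 or furan 2 (2 unadjusted each), 1 without control 4 or furan 1, and 5 without control 2, a count that holds the dimmer Egr1 probe with no control then above background. The lower count was 2 with normexp correction or scaling to the array median, 3 with the slide as a block and 0 within slide 1 alone or slide 2 alone (2 unadjusted each), and leaving out 1 array gave 1 to 2, with 2 without control 3. The 2 slide fits have 2 arrays a group. The cause of the other shifts was not tested.

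With a replicate block, 5 member probes were higher and 2 lower, with Egr1 (adjusted p 0.0253 and 0.0412), Myc (0.0421) and Ier3 (0.0371) added in limma. Of the higher probes, Fosl1 and the dimmer Egr1 probe entered the test only through the furan group, so their calls carry the limit given above. Replicate numbers did not pair the arrays: deviations of same-numbered arrays correlated across probes at -0.30, 0.11, 0.28 and 0.04, and control 2 correlated best with furan 1 (0.52). Signal limits Fos, Fosl1 and the dimmer Egr1 probe, which were well above background on 5 of 8 arrays each.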
